A study of Mus musculus with 18 samples.

Results

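Intergenic H3.3 sites outside gene deserts are stretches that the authors' annotation classes as lying between genes. At each, the authors listed a difference in the histone variant H3.3 in mouse nucleus accumbens after social stress. By the RefSeq annotation some of these sites lie inside genes, as given below. The wide gene-poor stretches that the authors' annotation calls gene deserts are a class of their own and are not included. The sites were chosen as all rows classed as other intergenic in both deposited lists of differential sites, and they are described by list and by the direction of the difference. They came to 698 of 2300 listed sites, with 370 of 1286 (28.8%) in susceptible mice against controls and 328 of 1014 (32.3%) in acutely stressed mice against controls.

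All groups were C57Bl/6J mice, and bilateral nucleus accumbens tissue of 5 animals was pooled for each library. Susceptible mice had been through chronic social defeat, had been classed in a test of social interaction held at 48 h, and were exposed once more to the stressor for 1 h, with 5 min of aggression and 55 min of housing next to the aggressor. Acutely stressed mice had no chronic defeat and met the same 1 h of stress for the first time. Control mice came from the home cage. Tissue was taken at day 28 after the last defeat. By the labels there were 18 libraries, with 3 H3.3 ChIP and 3 Input libraries in each group. Susceptible mice without renewed stress are not among these libraries, so chronic defeat, selection as susceptible and re-exposure cannot be told apart. The sources used here give no ages. Tissue pieces hold neurons, glia and vascular cells, and a change in the number of cells of a type and a change in H3.3 per cell cannot be told apart. The lists hold no measure of marker expression against which the tissue label could be checked.

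H3.3 is the form of histone H3 that can be placed into chromatin outside DNA replication, which makes it the form available to neurons after their last division. The HIRA complex places it at active genes and regulatory elements, and ATRX with DAXX places it at heterochromatin and repeats. Intergenic sequence can hold distal enhancers, insulator elements bound by CTCF, transcripts that an annotation lacks, and repeats.

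No genome of the files' build was used here, so letters could be shown only where a site overlapped a RefSeq promoter window, which runs from 250 bases before to 50 bases after a gene's start (build GRCm38.p6, whose coordinates on these chromosomes are those of mm10). This held for 2 of the 698 sites, both lower in susceptible mice than in controls, and both at long non-coding RNA genes. The overlap with the window of Gm13404 is chr2:33973474-33973773 on the plus strand, and that with the window of Gm33655 is chr4:114904051-114904196 on the minus strand. Capitals mark matches to the motifs named after the sequences.
Gm13404: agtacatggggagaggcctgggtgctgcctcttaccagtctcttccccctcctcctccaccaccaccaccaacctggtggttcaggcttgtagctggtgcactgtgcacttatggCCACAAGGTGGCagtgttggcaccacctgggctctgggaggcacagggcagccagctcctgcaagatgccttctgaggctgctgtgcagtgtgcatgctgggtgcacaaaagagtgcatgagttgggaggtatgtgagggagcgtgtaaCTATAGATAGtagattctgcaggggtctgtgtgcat
Gm33655: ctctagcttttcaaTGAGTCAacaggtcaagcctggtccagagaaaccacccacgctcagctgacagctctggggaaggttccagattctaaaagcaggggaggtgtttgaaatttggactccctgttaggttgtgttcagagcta
The Gm13404 stretch holds a match to the CTCF core motif and a match to the MEF2 motif, and the Gm33655 stretch a match to the AP-1 motif (TGA, any base, then TCA). CTCF is an insulator and loop-anchoring protein, MEF2 factors are activity-regulated in neurons, and AP-1 is the dimer of Fos and Jun proteins. Both strands were searched, and no 2 of these matches overlap. Of 32851 RefSeq promoter windows of 300 bases, 2.43% hold the CTCF core, 3.69% the MEF2 pattern and 7.81% the AP-1 motif. The CRE TGACGTCA (1.79% of windows), the glucocorticoid response element (0.475%) and a run of 6 CA repeats (1.01%) had no match in either stretch. The Gm13404 stretch is 57.3% G or C with 1 CpG in 300 bases, against medians of 52.7% and 7 CpG over all windows. The Gm33655 stretch is 49.3% G or C with 1 CpG in 146 bases.

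The site at the start of Gm13404 (chr2:33973376-33973775) had 3.26, 4.97 and 2.94 normalised counts in the 3 susceptible libraries, against 16.5 and 13.9 in the 2 control libraries. The site at Gm33655 (chr4:114904051-114904350) had 1.63, 3.31 and 4.40 in susceptible libraries, against 12.85 and 12.81 in control libraries. At both, every susceptible library lay below both control libraries, as at all 362 lower intergenic susceptible sites. In the authors' deposited table their log2 fold changes are -2.03 and -2.04, with adjusted p of 0.00186 and 0.0025. The protein-coding gene nearest to the second site is Foxd2, a forkhead transcription factor gene 1.93 kb away.

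Values are normalised read counts, 1 for each library in a list. The susceptible list carries 3 susceptible and 2 control libraries and the acute list 2 acute stress and 2 control libraries, and libraries are named here by their place in the list. A single read counted for 1.63, 0.828 and 1.47 in susceptible libraries, against 0.918 and 0.534 in control libraries of that list. The acute list has 0.951 and 1.43 for acute stress libraries, against 1.08 and 0.657 for control libraries, so the second control library was the deepest in both lists. A site held a median of 34 to 39.5 reads over all libraries in the 4 sets of sites below. The lists hold only sites that passed the authors' test, so each of the 698 sites differs between groups by construction, and the share of tested windows that passed is not known. With so few libraries, the smallest two-sided p that exact permutation of libraries allows at a site is 0.2 for susceptible mice (3 against 2) and 0.333 for acute stress (2 against 2).

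Susceptible mice had less intergenic H3.3 than controls at nearly every listed site. Of the 370 intergenic sites 8 (2.16%) were higher and 362 (97.8%) were lower, where over all 1286 listed sites 2.41% were higher and 97.6% were lower. The split of the intergenic sites was thus close to that of the whole list. In acutely stressed mice 204 of 328 intergenic sites (62.2%, Wilson 95% interval 56.8 to 67.3%) were higher than in controls and 124 (37.8%) were lower. Over all 1014 listed acute sites 53.4% were higher and 46.6% were lower, and among the 686 sites outside the intergenic class 49.1% were higher. Gene body sites had 49.1%, gene desert sites 49.0% and promoter sites 50% higher in the same list. The interval covers counting of sites only, all sites come from the same 4 libraries, and the difference between the classes was not tested. By chromosome, the intergenic share of higher sites lay above that of the other listed sites on 15 of 19 autosomes, and higher sites outnumbered lower ones on 15, were fewer on 3 and equal on 1.

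**Figure D1:**
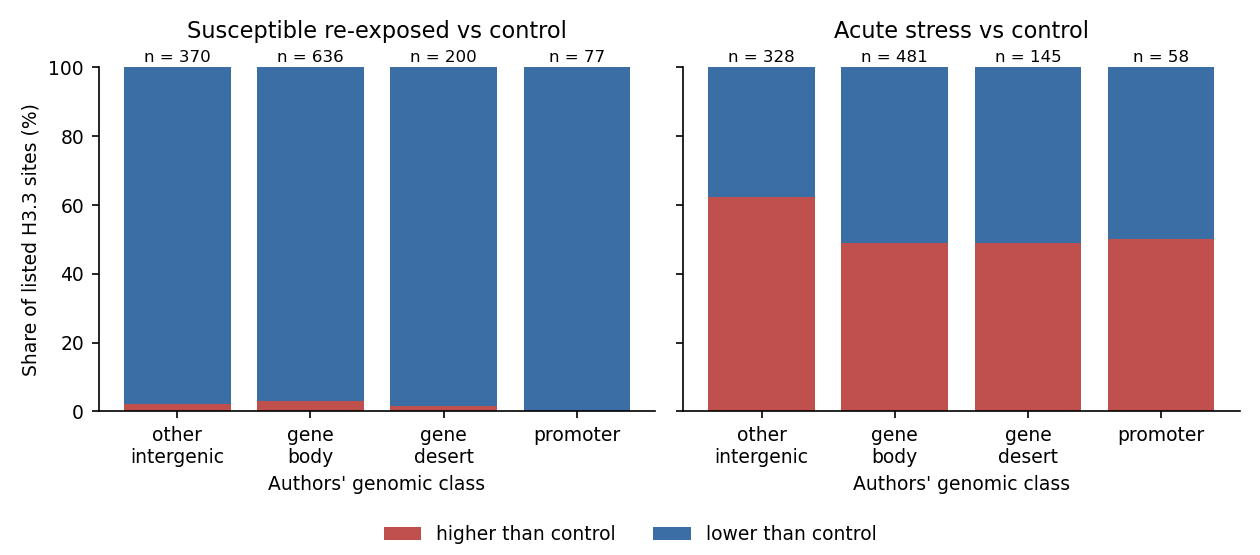
Share of listed H3.3 sites (y axis, percent) that were higher or lower than control, by the authors' genomic class (x axis), in susceptible re-exposed mice (left) and after acute stress (right), with the number of sites above each bar. The acute intergenic bar reaches 62.2% higher, against 49.1%, 49.0% and 50% in gene bodies, gene deserts and promoters, while all susceptible bars are nearly all lower.

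At the 362 lower intergenic sites the median count was 1.63, 2.48 and 1.47 in the 3 susceptible libraries, against 11.9 and 11.2 in the 2 control libraries. No read was counted at 91, 15 and 62 of these sites in the 3 susceptible libraries and at 0 sites in either control library. Lower sites were listed only where control counts were high, so control zeros are not a separate result. The lowest control counts were 10.09 and 9.61, the same as at the lower sites of all other classes. The second susceptible library, with the fewest zeros, was also the deepest of the 3 by the value of 1 read. All 362 sites had every susceptible library below every control library, as did 99.8% of all listed susceptible sites in their own direction. The median SD was 1.41 over susceptible and 0.94 over control libraries, and the median gap between the nearest libraries of the groups was 7.61. The median log2 fold change in the authors' deposited table was -2.44 (range -4.32 to -1.64), beside -2.40 over the lower sites of all other classes.

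The lower site with the smallest p in susceptible mice was chr3:38333501-38333900, 115 kb from Ankrd50, a gene for an endosomal recycling protein. It had 0, 3.31 and 1.47 normalised counts in susceptible libraries, against 15.6 and 14.95 in control libraries. The authors' deposited table gives it a log2 fold change of -3.26 and an adjusted p of 0.000367. The site with the steepest fold lay at chr9:98709251-98709525, 108 kb from the mitochondrial ribosome gene Mrps22, with 0, 1.66 and 0 in susceptible libraries, against 11.9 and 10.1 in control libraries. That is 2 susceptible and 32 control reads, a control over susceptible ratio of 13.5 (3.45 to 116, exact 95% counting interval). At both sites at least 1 susceptible library had no read, while both control libraries stood well above all susceptible ones.

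The highest control levels stood at chr16:65961001-65961525 and chr5:39362701-39363200, of which the second lies 251 kb from Hs3st1, a heparan sulfate sulfotransferase gene. The first had 4.88, 4.97 and 7.34 in susceptible libraries, against 22.9 and 21.9 in control libraries. The second had 8.14, 4.14 and 4.40 in susceptible libraries, against 22.9 and 20.8 in control libraries. These are the deepest lower sites, and reads were counted there in every susceptible library. Next came chr13:34864351-34864800, 10.02 kb from the splicing kinase gene Prpf4b, with 3.26, 4.97 and 7.34 in susceptible libraries, against 22.0 and 17.6 in control libraries. The other lower sites among the 8 with the smallest p lay nearest to Tshz2 (a teashirt zinc finger gene), Peli2, Spty2d1 (a histone chaperone gene) and Zpld1. Just inside the p threshold was a site 4.53 kb from Cdnf, a neurotrophic factor gene, with 0, 5.79 and 2.94 in susceptible libraries, against 14.7 and 12.8 in control libraries.

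Only 8 intergenic sites were higher in susceptible mice, and they fell into 2 kinds. At 5 of them the susceptible libraries lay close together. The site chr16:93474326-93474575, 109 kb from Setd4, had 9.77, 9.10 and 8.81 in susceptible libraries, against 0.92 and 1.60 in control libraries. The site 13.0 kb from Tasp1, which encodes the protease that cleaves MLL, had 11.4, 13.2 and 13.2 in susceptible libraries, against 3.67 and 2.67 in control libraries. The sites nearest to Micall1, Man1a2 and Ap2s1 had 8.81 to 13.2 in susceptible libraries, against 0.92 to 3.74 in control libraries. Ap2s1 encodes the small subunit of the AP2 clathrin adaptor, and its site, 1.74 kb away, did not pass the counting test described below.

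At the other 3 higher sites the susceptible libraries were spread wide. The site chr6:132463651-132463900 had 60.2, 9.93 and 26.4 in susceptible libraries, against 3.67 and 4.27 in control libraries. At chr9:19575176-19575625, 7.79 kb from the olfactory receptor gene Olfr854, the counts were 55.3, 13.2 and 26.4 in susceptible libraries, against 7.34 and 3.20 in control libraries. The site chr14:104336851-104337325, in the long non-coding gene D130079A08Rik and 124 kb from Pou4f1, had 58.6, 16.6 and 45.5 in susceptible libraries, against 10.1 and 10.1 in control libraries. The first library was highest and the second lowest at all 3, and the SD at the chr6 site was 25.6 (n = 3). Their enrichment ratios in the authors' deposited table were 0.22, 0.31 and 0.29 in susceptible mice and 0.01, 0.02 and 0.02 in controls, all under 1. Over the whole list 10 higher sites had a susceptible mean over 20, their largest susceptible ratio was 0.34, and the libraries had this same order at 9 of them. Without the 3 sites the intergenic class held 5 higher sites, a share of 1.37%. Without the first susceptible library the counting test described below kept 4 of the 8 higher sites, against 7 with it. Without any 1 of the other libraries of the list it kept 3, so this drop is not particular to the first library. The median log2 fold change without the first library was 2.04, against 2.18 with all libraries.

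**Figure D2:**
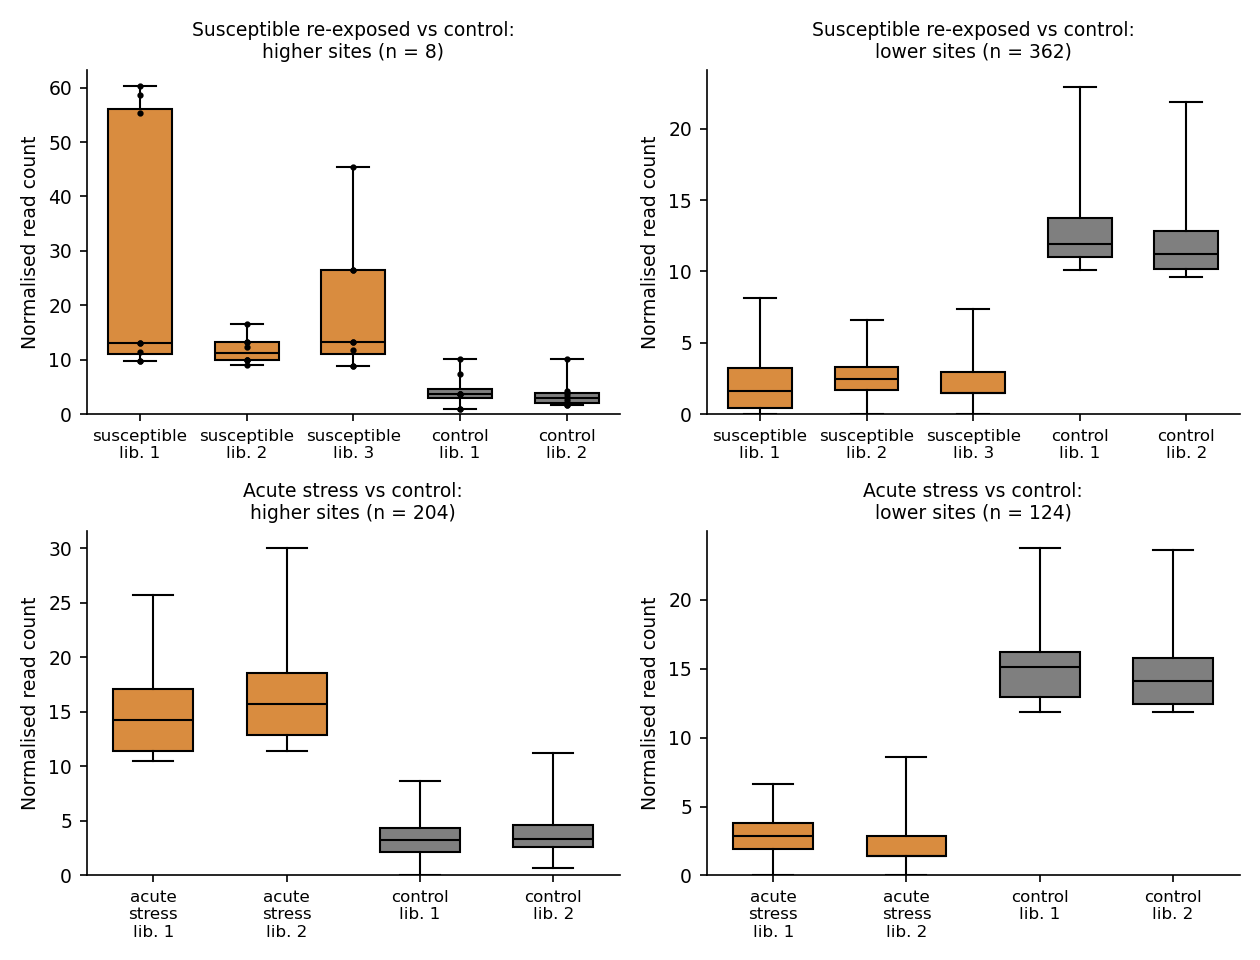
Normalised read counts (y axis) at intergenic sites in each library (x axis), for higher and lower sites of each comparison. Boxes are quartiles with the median, whiskers the lowest and highest site, and points at the 8 higher susceptible sites are single sites. Stress and control libraries do not overlap at lower sites, and the first susceptible library reaches 60.2 at the higher sites.

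After acute stress both directions were well represented. At the 204 higher sites the median count was 14.3 and 15.7 in the 2 acute stress libraries, against 3.24 and 3.29 in the 2 control libraries. The lowest counts at any of these sites were 10.5 and 11.4 in the 2 acute stress libraries, the same as at the higher sites of all other classes. The first control library had no read at 13 of the 204 sites. The median log2 fold change in the authors' deposited table was 2.2 (range 1.63 to 3.65), the same as over the higher sites of all other classes. At the 124 lower sites the median was 2.85 and 1.43 in acute stress libraries, against 15.1 and 14.1 in control libraries. No read was counted at 3 and 22 lower sites in the 2 acute stress libraries. The lower sites had a median log2 fold change of -2.58 (range -4.68 to -1.76) in the authors' deposited table, beside -2.64 over the lower sites of all other classes. The libraries of the 2 groups did not overlap at any of the 328 sites, as at 100% of the listed acute sites, and the median gap between nearest libraries was 9.28 at higher and 10.3 at lower sites.

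The higher site with the smallest p lay at chr9:87865101-87865425, 134 kb from Tbx18, a T-box transcription factor gene. It had 16.2 and 15.7 in acute stress libraries, against 1.08 and 1.97 in control libraries. The authors' deposited table gives it a log2 fold change of 3.38 and an adjusted p of 0.00537. A site 3.09 kb from P4ha3, which encodes a subunit of collagen prolyl hydroxylase, had 11.4 and 15.7 in acute stress libraries, against 1.08 and 1.31 in control libraries. It rested on 23 acute stress and 3 control reads, a ratio of 10.7 (3.24 to 55.7, exact 95% counting interval). In both, the 2 acute stress libraries stood far apart from the 2 control libraries.

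Higher levels in both groups were seen at the site 107 kb from Lifr, the receptor gene of leukemia inhibitory factor (chr15:6982976-6983350), with 23.8 and 24.3 in acute stress libraries, against 6.49 and 5.91 in control libraries. The highest acute stress mean was at chr6:90864826-90865275, which RefSeq places inside Iqsec1, a gene for an exchange factor of Arf GTPases at synapses. Its counts were 25.7 and 25.7 in acute stress libraries, against 5.41 and 11.2 in control libraries, and the control libraries lay farther from each other than the acute stress libraries. Inside Rasgrf2, a gene for a calcium-responsive activator of Ras, a site had 19.01 and 14.3 in acute stress libraries, against 2.16 and 3.29 in control libraries. The remaining higher sites among the 8 with the smallest p lay nearest to Spata16, 4930453N24Rik, Tcf7l2 and Armc3, for which the authors' deposited table has log2 fold changes of 3.65, 2.85, 2.08 and 3.07. The Spata16 site held 19 acute stress and 2 control reads, a ratio of 13.3 (3.20 to 117, exact 95% counting interval).

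Lower sites after acute stress reached nearly 0. At chr13:5945776-5946025, in the long non-coding gene Gm46401 and 75.4 kb from the zinc finger gene Klf6, the counts were 0.95 and 0 in acute stress libraries, against 11.9 and 12.5 in control libraries. The site chr4:14075326-14075575, 180 kb from the corepressor gene Runx1t1, had the same 4 values. Each rested on 1 acute stress read and 30 control reads, a control over acute stress ratio of 21.5 (3.57 to 876, exact 95% counting interval). A site 2.94 kb from Kmt5c, a histone methyltransferase gene of heterochromatin, had 3.80 and 1.43 in acute stress libraries, against 18.4 and 17.1 in control libraries. The deepest lower site, chr9:43296601-43297025 near Trim29, had 6.65 and 5.72 in acute stress libraries, against 23.8 and 23.65 in control libraries. Others among the 8 with the smallest p lay nearest to Macrod2, Rcn1 and Btbd3 (a regulator of dendrite orientation). The acute sites nearest the p threshold lay 37.9 kb from Grm3 (higher) and 18.9 kb from Ugcg (lower).

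**Figure D3:**
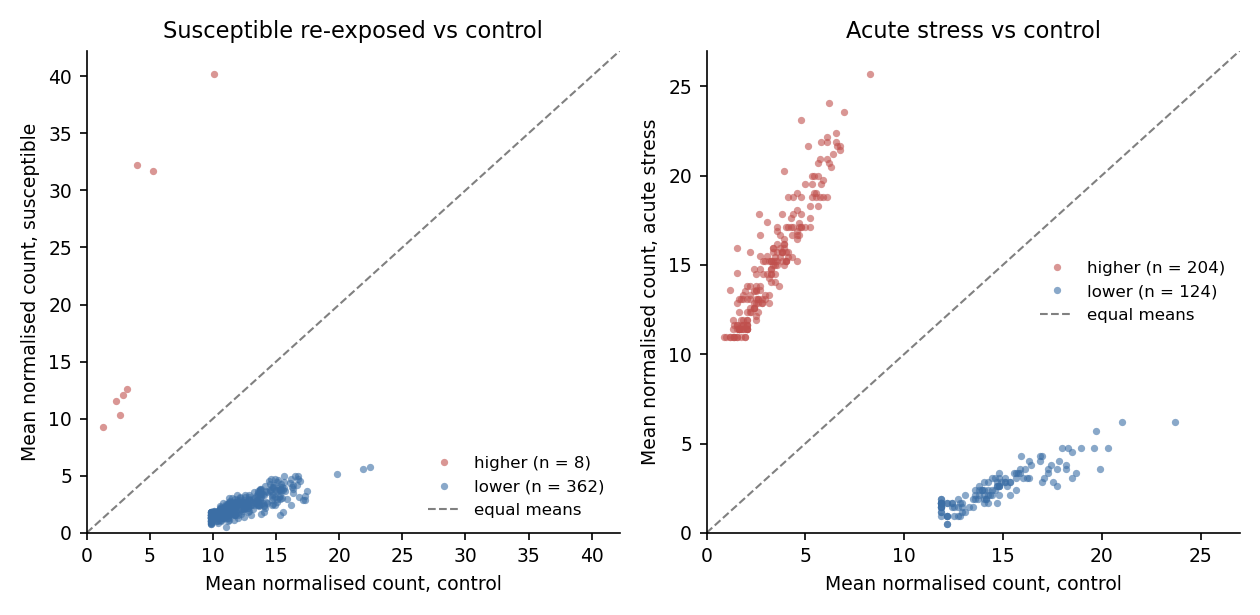
Mean normalised count per intergenic site in control mice (x axis) against stressed mice (y axis), for the susceptible list (left) and the acute list (right), with the line of equal means dashed. Each point is a site. All 8 higher susceptible sites lie above the line, and the 3 with means over 20 stand apart from the other 5. No site lies near the line, since only called sites were deposited.

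Reads at each site were also compared by an exact two-sided binomial test with the depths of the libraries as its null share. Its threshold was 0.0001, and it covers counting error only. In susceptible mice it kept 7 of 8 higher sites (83.9% of all listed higher sites) and 360 of 362 lower sites (99.5% of all listed lower sites), where 99.1% of all listed susceptible sites passed. After acute stress it kept 137 of 204 higher sites (67.8% of all listed higher sites) and 121 of 124 lower sites (96% of all listed lower sites), where 81% of all listed acute sites passed. Among the sites kept, 53.1% of the acute intergenic sites were higher, against 40.9% of the other acute sites. Of the acute sites described below, those nearest to Grin2b, Pvalb and Fgfr2, both in Tenm3, the lower one in Ank2, the farthest near Tcf7l2 and 1 each near Shisa9, Fut8, Kcne4 and Ccdc34 did not pass it. Higher acute sites held fewer reads, with a median of 34, against 39.5 at lower ones. Left out 1 at a time, each library lowered these counts by over 1.5 times. The test then kept 3 to 4 higher and 45 to 139 lower susceptible sites, fewest lower sites without the second susceptible library. It kept 2 to 22 higher and 2 to 41 lower acute sites, fewest higher sites without the second control library and fewest lower sites without the first acute stress library. The acute split of the sites kept turned with the library left out. Leaving out a library also shifts the depth share used as the null, and with it the reach of the test in each direction. These counts therefore cannot tell whether the direction itself depends on a library. Higher sites outnumbered lower ones without the first (22 and 2) or the second (20 and 11) acute stress library, and lower ones outnumbered higher ones without the first (22 higher, 41 lower) or the second (2 higher, 18 lower) control library.

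Enrichment ratios in the deposited tables give a further readout per group, and the sources used here do not say what it is divided by. At the lower susceptible sites the control ratio in the authors' deposited table was at least 1 at 274 of 362 (75.7%), the same share as at the lower sites of all other classes (676 of 893). This includes 233 sites (64.4%) listed as infinite, beside 58.7% at the lower sites of all other classes. Where both ratios were finite, the ratio was smaller in susceptible mice than in controls at 62 of 117 sites, beside 171 of 340 in all other classes. Among sites with 2 finite ratios, the ratio and the count thus went different ways at many. With an infinite ratio ranked above any finite one, the ratio was smaller in susceptible mice at 272 of 362 sites, beside 628 of 893. A site infinite in both groups counts here as neither smaller nor larger. At 3 of the 8 higher susceptible sites the susceptible ratio in the authors' deposited table was at least 1, beside 7 of 23 in all other classes. Of these 3, the sites nearest to Tasp1 (1.88) and Setd4 (4.21) had an infinite control ratio. The site nearest to Ap2s1 had 2.57 in susceptible mice against 0.27 in controls. Over all 8 sites the ratio was larger in susceptible mice at 6, beside 13 of 23 in all other classes. At the higher acute sites the acute stress ratio in the authors' deposited table was at least 1 at 184 of 204 (90.2%), beside 81.9% at the higher sites of all other classes. The control ratio was infinite at 127 (62.3%) of the same sites, beside 59.3% at the higher sites of all other classes. Where both were finite, the ratio was larger after acute stress at 45 of 45 higher sites and smaller at 32 of 35 lower sites. In all other classes the same held at 90 of 92 higher and 91 of 99 lower sites. The sites with 2 finite ratios are a small part of the acute list. With infinite ratios ranked as above, the ratio was larger after acute stress at only 77 of 204 higher sites, beside 135 of 337 in all other classes. It was smaller at 72 of 124 lower sites, beside 214 of 349.

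By the RefSeq annotation the sites lay at a wide range of distances from genes, and some lay inside them. The median distance to the nearest RefSeq gene of any type was 11.4 kb for susceptible and 12.7 kb for acute sites. Of the susceptible sites 61 of 370 (16.5%) overlapped a RefSeq gene, 35 of them a long non-coding and 23 a protein-coding gene. Of the acute sites 63 of 328 (19.2%) did, 39 a long non-coding and 21 a protein-coding gene. The annotation behind the authors' classes is not given in the sources used. The median distance to the nearest protein-coding gene was 34.0 kb at higher and 43.3 kb at lower susceptible sites, and 42.4 kb at higher and 55.9 kb at lower acute sites. The share of higher acute sites was 71.4% inside protein-coding genes (21 sites), 64.8% under 10 kb, 64.4% at 10 to 50 kb, 60.3% at 50 to 100 kb and 57.9% at 100 kb or more. The sites inside coding genes are few, and at 60.8% the share over sites outside all RefSeq genes was close to that of the whole class.

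**Figure D4:**
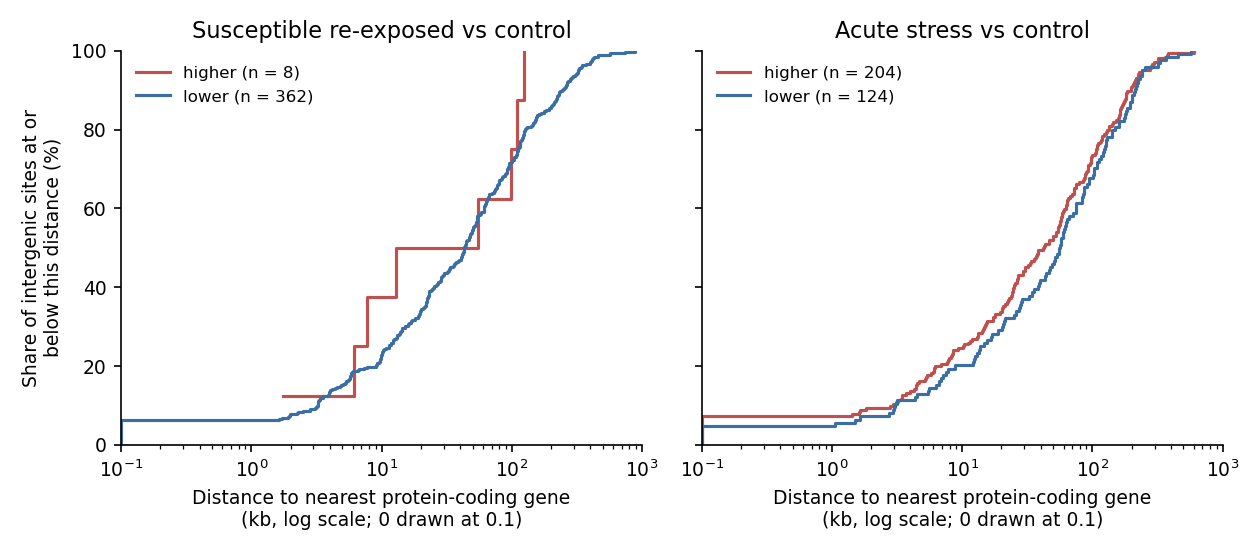
Share of intergenic sites (y axis, percent) at or below a given distance to the nearest protein-coding gene (x axis, kb, log scale, with 0 drawn at 0.1), for higher and lower sites in susceptible mice (left) and after acute stress (right). The acute higher curve runs above the lower one over most distances, with medians of 42.4 and 55.9 kb.

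Sites were mostly scattered, and each nearest gene usually had only 1. The 362 lower susceptible sites had 347 nearest protein-coding genes, of which 14 had 2 or more sites. Meis1, a homeobox gene, had the most, with 3 lower sites, of which 2 lay together in Gm12026, which RefSeq classes as a pseudogene. At these the counts were 4.88, 3.31 and 2.94 in susceptible libraries, against 14.7 and 12.8 in control libraries, and 1.63, 0.83 and 2.94 in susceptible libraries, against 11.9 and 9.61 in control libraries. Within 50 kb of each other lay 5 groups of susceptible sites, each of 2 sites, near Ptpn4 and Tmem177, Meis1, the neurexin gene Nrxn3, Pou4f1 and the ankyrin gene Ank2. The pair near Pou4f1 held a higher and a lower site, 28.8 kb from end to end, in the same long non-coding gene D130079A08Rik. Its lower site had 0, 4.14 and 1.47 in susceptible libraries, against 12.85 and 10.1 in control libraries.

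The 204 higher acute sites had 195 nearest protein-coding genes, and 8 of these had 2 or more. Tcf7l2, a transcription factor gene of Wnt signalling, had 3 higher sites, at 4.65, 70.0 and 95.3 kb. Their counts were 10.5 and 11.4 in acute stress libraries, against 2.16 and 0.66 in control libraries at the nearest, 21.9 and 21.4 against 4.33 and 5.91 at the middle one, and 19.96 and 22.9 against 4.33 and 9.20 at the farthest. All 3 stood above the control libraries, as did every listed higher acute site. The nearest rested on 19 acute stress and 3 control reads (ratio 8.85, exact 95% counting interval 2.60 to 46.7). Of 7 acute pairs within 50 kb, those near Fut8, Shisa9, Tcf7l2 and Ccdc34 were higher at both sites. Shisa9 encodes an auxiliary subunit of AMPA receptors, and its pair had 11.4 and 11.4 in acute stress libraries, against 2.16 and 1.97 in control libraries, and 13.3 and 28.6 in acute stress libraries, against 7.57 and 3.94 in control libraries. The pairs near Kcne4 and in Ank2 each held a higher and a lower site.

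Synaptic adhesion genes are the largest of the gene lists. In susceptible mice 8 of 62 (12.9%) were the nearest coding gene of a lower site (10 sites) and 0 of a higher one, with Adgrl2, Cdh19, Cntn5, Nrxn3, Pcdh15, Ptprd, Slitrk6 and Tenm3 as members. Cntn5, a contactin gene, held a site with 1.63, 3.31 and 1.47 in susceptible libraries, against 13.8 and 14.4 in control libraries. The Nrxn3 site with the smaller p, 60.9 kb from the gene, had 3.26, 4.14 and 1.47 in susceptible libraries, against 14.7 and 15.5 in control libraries. After acute stress 3 of 62 (4.84%) were nearest to a higher site, namely Cdh2, Cdh12 and the teneurin gene Tenm3 (2 sites), and 0 to a lower one. Of all 21900 RefSeq protein-coding genes 1.58% were nearest to a lower susceptible site and 0.89% to a higher acute site. Gene length and spacing were not accounted for, and the gene lists were chosen with earlier results of these data known. The difference between these shares and those of the list was therefore not tested. The Cdh12 site had 16.2 and 14.3 in acute stress libraries, against 3.24 and 3.94 in control libraries. These counts stand beside 97.8% lower intergenic sites in the susceptible list and 62.2% higher ones in the acute list, so the direction within the list is mostly that of its class.

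Glutamate and GABA receptor genes had 3 of 28 members nearest to a lower susceptible site (Gria2 and Grin2b among them), 0 nearest to a higher one, and 3 of 28 nearest to a higher acute site (Grin3a, Grin2b and Grm3). The list does not hold every receptor gene, and Gabrb2, a GABA receptor gene outside it, was nearest to 2 lower susceptible sites at 16.9 and 154 kb. Grin3a encodes an NMDA receptor subunit, and its site, 6.23 kb away, had 19.01 and 22.9 in acute stress libraries, against 7.57 and 4.60 in control libraries. Gria2 encodes the AMPA receptor subunit that sets calcium permeability, and its site had 3.26, 5.79 and 0 in susceptible libraries, against 16.5 and 14.4 in control libraries, at a distance of 325 kb. Striatal neuron genes had 2 of 22 members nearest to lower susceptible sites, the transcription factor genes Bcl11b and Foxp1. The Bcl11b site, 36.2 kb away, had 4.88, 2.48 and 2.94 in susceptible libraries, against 13.8 and 13.9 in control libraries. Each of these sites had its stress libraries apart from its control libraries, as did 99.8% of all listed susceptible and 100% of all listed acute sites.

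Stress hormone genes had 1 of 14 members nearest to a site, the corticotropin-releasing hormone receptor gene Crhr1, with 3.80 and 5.72 in acute stress libraries, against 16.2 and 19.7 in control libraries, 44.2 kb away. Growth factor genes had 3 of 13, with Igf1 near a lower susceptible site, Fgfr2 near a higher acute site and Erbb4 near a lower acute site. At Igf1 the counts were 3.26, 2.48 and 1.47 in susceptible libraries, against 16.5 and 12.8 in control libraries. At Erbb4 they were 2.85 and 2.86 in acute stress libraries, against 15.1 and 15.1 in control libraries. Of other neurons, 1 of 9 genes, the interneuron gene Pvalb, lay 4.39 kb from a higher acute site with 10.5 and 12.9 in acute stress libraries, against 1.08 and 2.63 in control libraries. Markers of glia and vessels had 1 of 19, Pdgfra of oligodendrocyte precursors, 179 kb from a higher acute site. No site in either list had an immediate early gene (0 of 15) or a gene of H3.3 and its chaperones (0 of 10) as its nearest coding gene. Of all 21900 RefSeq protein-coding genes 0.557% were nearest to a lower acute site. For lower susceptible and higher acute sites the shares were 1.58% and 0.89%. These gene lists are short, and their differences from the shares over all genes were not tested.

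Both lists held 8 of the same intergenic sites, 2.16% of the susceptible and 2.44% of the acute ones, counting an overlap of at least 1 base pair. All 8 were lower than control in both. The lists share their control libraries, since at the 3 sites with equal coordinates the control reads were the same in both (29, 29 and 41), so the lists are given side by side and not as separate support. The site chr2:169422151-169422475, 210 kb from Tshz2, had 1.63, 2.48 and 1.47 in susceptible libraries, against 14.7 and 13.4 in control libraries, and 3.80 and 4.29 in acute stress libraries, against 17.3 and 16.4 in control libraries. At the site near Adra1b, the gene of an adrenergic receptor, the counts were 3.26, 4.14 and 0 in susceptible libraries, against 13.8 and 11.8 in control libraries, and 2.85 and 2.86 in acute stress libraries, against 16.2 and 13.1 in control libraries. Near Inpp1, a gene of inositol phosphate turnover, they were 0, 2.48 and 4.40 in susceptible libraries, against 11.9 and 11.8 in control libraries, and 0.95 and 2.86 in acute stress libraries, against 14.1 and 13.1 in control libraries. The other 5 lay nearest to Kcnt2 (a sodium-activated potassium channel gene), Rit2 (a neuronal small GTPase gene), Zfp516, Il15 and Mon1b. Over the 8 sites the log2 fold changes in the authors' deposited table ran from -3.16 to -1.89 in susceptible mice and from -3.06 to -1.79 after acute stress.

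**Figure D5:**
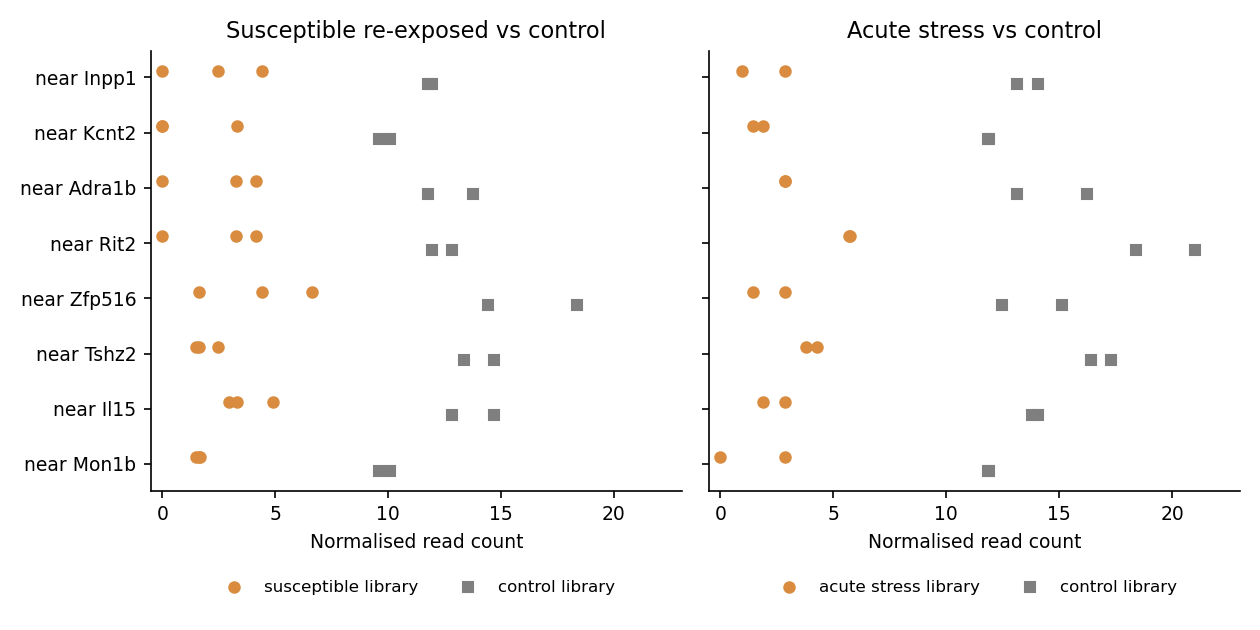
Normalised read counts (x axis) at the 8 intergenic sites in both lists, named by the nearest protein-coding gene (y axis), with stress libraries as circles and control libraries as squares, for the susceptible list (left) and the acute list (right). Every stress library lies below every control library of its list, and the control libraries are the same in both panels.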

How the data were processed

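The submitters' processing notes name Bowtie2 2.2.0, SAMtools 0.1.19 and mm10. The table names give diffReps, but no source used here gives its version, test, normalisation or filters. Each listed site has a normalised read count for every library in the table, deposited by the authors. The group averages deposited by the authors (treated as a signal here) equal the means of these counts to rounding, and an enrichment ratio is given for each group, per the file headers. The log2 fold change, p-value and adjusted p-value were deposited by the authors and kept as the test of each site. The planned use of raw counts was dropped because the counts are normalised and cover only listed sites, and no count model was used.

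The labels call the replicates biological. The count cells hold fewer libraries than the 3 a group in the labels for all but the susceptible group, and their order is not tied to replicate numbers. Values were whole multiples of 1 step per library for 99.9% to 100% of cells (tolerance 0.011). These whole reads, tested on simulated data, were used for the exact binomial test and exact Clopper-Pearson 95% intervals of pooled folds. Both cover counting error only. The test uses the same reads as the authors' test and is not independent of it. The sources used give no library totals. Input libraries have no column of their own in the tables used.

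Distances run to the nearest RefSeq gene body (GRCm38.p6), with 0 inside a gene. Promoter windows came from RefSeq. Sites named are, by list and direction, the 8 with the smallest p, the 3 with the highest mean, all higher susceptible sites, those in both lists, those nearest the threshold, and up to 4 examples a gene list. Other sites named were chosen after their values were seen. The members and gene lists were chosen with earlier results of these data known. Python 3.11.15, pandas 2.3.3, NumPy 2.4.6, SciPy 1.17.1 and matplotlib 3.10.9 were used. The planned printing of site sequences needs a genome of build mm10, which was not used here. A few sites that these rules would name are not reported here.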

Additional observations from a re-analysis of the deposited data

How the results depend on the processing

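At a deposited p of at most 1e-05 the lists held 3 higher and 69 lower susceptible sites and 28 higher and 21 lower acute sites. At an adjusted p of at most 0.001 they held 3 and 21 susceptible sites (12.5% higher) and 0 and 0 acute sites. With an enrichment ratio of at least 1 in the higher group, 3 susceptible sites were higher (1.08%). Without sites over a mean of 20, a choice made after seeing the data, 5 were higher. With gene deserts included, 559 susceptible and 198 acute sites were lower. The acute share of higher sites was 53.1% under the counting test, against 40.9% at other sites, 57.1% against 48.7% at p of at most 1e-05, 66.7% against 50.9% with the ratio of at least 1, and 60.8% against 48.7% outside RefSeq genes, which was also chosen after seeing the data. A pseudocount of 1 gave median log2 fold changes of -2.01 (susceptible lower), 1.90 (acute higher) and -2.18 (acute lower), smaller by construction. Leaving out 1 library, the counting test kept 3 to 4 higher and 45 to 139 lower susceptible sites (139, 45 and 125 without susceptible libraries 1 to 3, 117 and 57 without control libraries 1 and 2). It kept 2 to 22 higher acute sites (22 and 20 without acute stress libraries 1 and 2, 22 and 2 without the control libraries) and 2 to 41 lower ones (2, 11, 41 and 18 in that order), on fewer reads by construction. The medians then ran from 2.04 to 2.51, -2.54 to -2.35, 2.12 to 2.34 and -3.05 to -2.54 in the same order. Groups of sites within 100 kb numbered 9 in susceptible mice. For the other moves the cause was not tested. The acute majority of higher sites turned to lower ones under the counting test without either control library. The depth share used as the null shifted there too. No median log2 fold change turned its sign, as must hold where the libraries lie apart at every site. No paired analysis was possible because the count cells carry no replicate numbers. The setting that drops repeat-masked sites was not run, since it needs a genome of the files' build. Sites rest on 21 to 117 reads each, which limits single-site folds.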

Other observations

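A few protein-coding genes held or neighboured a lower site in susceptible mice and a higher site after acute stress, at different positions. They were picked after their values were seen, and the difference between the comparisons was not tested. Inside Ppargc1a, which encodes a coactivator of mitochondrial gene expression, the susceptible site had 1.63, 1.66 and 2.94 normalised counts in susceptible libraries, against 11.01 and 10.1 in control libraries. The acute site in the same gene had 10.5 and 11.4 in acute stress libraries, against 1.08 and 1.31 in control libraries.

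Tenm3 held 2 susceptible and 2 acute sites. At the susceptible pair the counts were 3.26, 0.83 and 1.47 in susceptible libraries, against 10.1 and 9.61 in control libraries, and 4.88, 1.66 and 5.87 in susceptible libraries, against 13.8 and 14.4 in control libraries. At the acute pair they were 10.5 and 12.9 in acute stress libraries, against 2.16 and 1.97 in control libraries, and 11.4 and 11.4 in acute stress libraries, against 0 and 3.29 in control libraries. Near Grin2b, an NMDA receptor subunit gene, the susceptible site had 1.63, 3.31 and 1.47 in susceptible libraries, against 11.9 and 10.7 in control libraries, and the acute site 15.2 and 12.9 in acute stress libraries, against 3.24 and 3.29 in control libraries.

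Ank2, which encodes ankyrin-B, held 2 lower susceptible sites and, after acute stress, a higher and a lower site. The acute pair had 19.01 and 17.2 in acute stress libraries, against 3.24 and 5.91 in control libraries at the higher site, and 2.85 and 5.72 in acute stress libraries, against 14.1 and 17.7 in control libraries at the lower one. These 2 sites came from the same 4 libraries and the same gene, 31.8 kb from end to end.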
